A study of Caenorhabditis elegans with 6 samples.

Results

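The genes described here encode the subunits of the proteasome of Caenorhabditis elegans. They were taken by name, as every probe set whose single gene symbol was pas-, pbs-, rpt- or rpn- followed by a number. The rule found 33 of the 17118 genes with a single symbol, on 39 of the 22548 probe sets tested. The core particle accounted for 14 genes and the regulatory cap for 19. Each gene was represented by its probe set with the highest mean over the 6 arrays, and 6 genes had a further probe set.

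The proteasome is the protease that degrades proteins marked with ubiquitin. Its core particle is a barrel of stacked rings, with alpha subunits (pas genes) forming the gated outer rings and beta subunits (pbs genes) forming the inner rings, some of which cut peptide bonds. A regulatory cap sits on the barrel. The base of the cap holds a ring of ATPases (rpt genes) that unfold the substrate, together with scaffold subunits and ubiquitin receptors, and its lid (the remaining rpn genes) removes the ubiquitin chain. In worms the transcription factor SKN-1A raises the transcription of subunit genes together when proteasome function is impaired.

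Expression was measured on Affymetrix arrays with RNA from whole worms of the wild-type strain N2, 1 array per dish of about 2000 worms, with 3 dishes in each of 2 groups. In the Au-NP group, third-stage larvae (L3) in 50% K-medium, a dilute salt solution, were given citrate-coated gold nanoparticles of 4 nm at 5.9 mg/L, which the labels give as the LC10. The other group is labelled as the control, and what its dishes were given in place of particles is not stated. Both groups are recorded with 50% K-medium, about 2000 worms per dish, the same times and a temperature of 20 °C. The design text describes 12 h of exposure and 12 h in fresh medium, with RNA taken at 24 h, so the comparison asks which transcripts differed after a period without particles. Values are log2 signals made with RMA. Differences are Au-NP minus control from limma, with the moderated standard error (SE), and a gene is said to have risen or fallen when the p adjusted over all probe sets was under 0.05.

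The arrays had medians from 7.03 to 7.09 on the log2 scale. Au-NP replicate 3 stood apart: its correlations with Au-NP replicates 1 and 2 across probe sets were 0.988 and 0.990, and those 2 arrays had 0.997 with each other. Where leaving it out changed a call or a count below, the value without it is given too. Nothing in the labels says whether the dishes were separate cultures, and every p-value therefore reflects dish-to-dish spread alone. With 3 arrays a group, array number sets the precision. Directions are those of the array labels. The published account of this experiment, as recalled and not checked, had the abu and pqn genes moving the other way from these labels, and nothing in the files settles which is right. Marker genes of the germ line were lower on the Au-NP arrays, with a summed linear signal of 5126 to 7322 on the Au-NP arrays and 8119 to 9455 on the control arrays. Of 15 such markers 6 fell and 0 rose (9 lower and 0 higher at an unadjusted limma p under 0.05). The shares over all genes were 4.45% that fell and 7.09% that rose (8.39% lower and 18% higher at an unadjusted limma p under 0.05). Without Au-NP replicate 3 they were 7.41% that fell and 10.3% that rose. Body-wall muscle markers also had 4 of 10 members that fell (5 without Au-NP replicate 3), with 0 that rose (1 higher and 4 lower at an unadjusted limma p under 0.05), and their summed signal did not overlap, at 72097 to 78611 on the Au-NP arrays and 80380.2 to 82485 on the control arrays. Of 8 hypodermal markers 1 fell, nhr-23, and without Au-NP replicate 3 the number was 4, with dpy-7, rol-6 and dpy-13. Their summed signal was 33994, 37989.5 and 46785 on Au-NP arrays 1 to 3, against 47019, 43196.5 and 47844 on the control arrays, so that the overlap came from Au-NP replicate 3 alone. Of 12 intestinal markers 1 fell, and of 11 neuronal markers 1 rose and 1 fell, and the summed signals of these 2 lists overlapped between the groups. The part of tissue composition in the results below was not tested, and in whole worms fewer cells of a type cannot be told apart from less RNA per cell.

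Proteasome transcripts were close to the control level on the Au-NP arrays, with 2 exceptions that were lower. The scaffold subunit gene rpn-1 and the catalytic beta subunit gene pbs-2 fell. The other 31 subunit genes did not pass the test, and 0 rose (6 were higher and 5 lower at an unadjusted limma p under 0.05, which 18% of all genes met as higher and 8.39% as lower). Over all genes tested, 4.45% fell and 7.09% rose, so 2 falls among 33 genes were near the general rate and the absence of rises was below it. The median difference over the 33 genes was 0.081 log2, against 0.042 over all genes tested. It was 0.059 without Au-NP replicate 3, and rpn-1 was then the one gene that fell, against 7.41% of all genes, and 0 rose, against 10.3%. All 33 genes lay at or above the median signal level, and these shares cover genes of every level. Refitted at or above that level, 1353 of 8565 genes rose and 758 fell, with a median of 0.0997. In that fit 2 subunit genes rose (pas-2 and pbs-4) and 2 fell, and their median of 0.081 was below that of all genes.

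**Figure D1:**
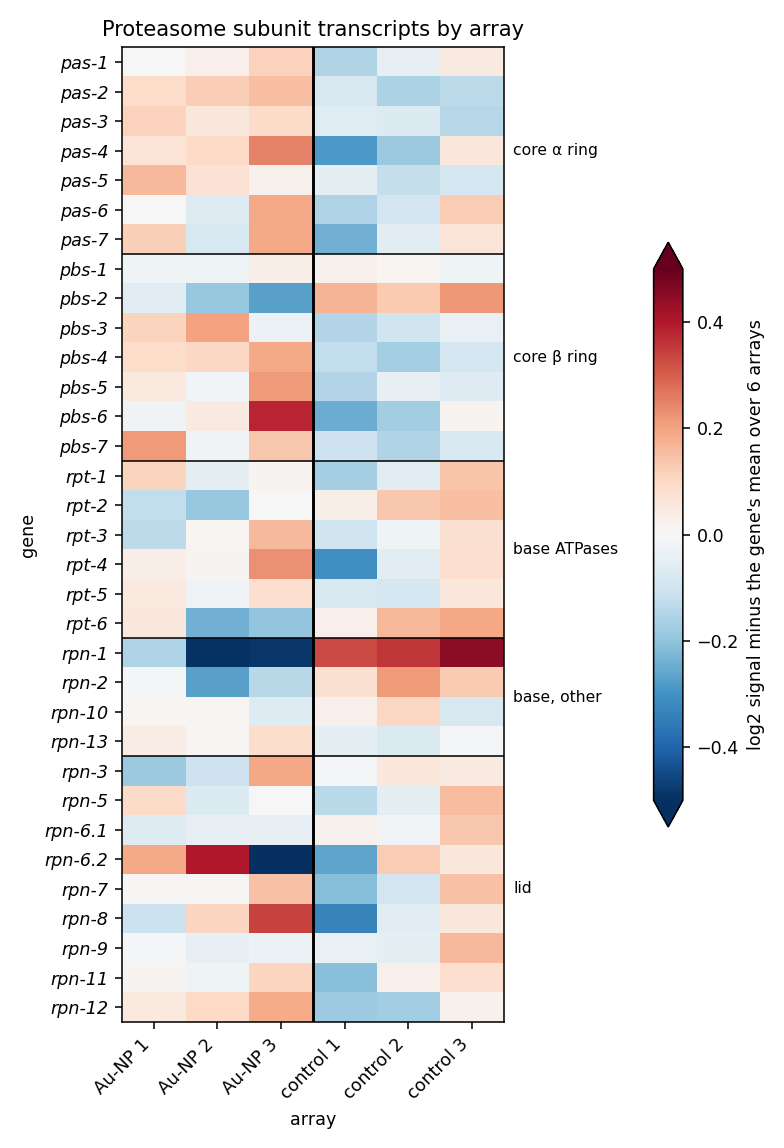
Log2 signal of the 33 subunit genes (rows, grouped by ring, base and lid) in each array (columns, Au-NP left of the line and control right of it), as the difference from the gene's mean over the 6 arrays, on a colour scale that saturates at 0.5 log2. The rows of rpn-1 and pbs-2 are blue in the Au-NP columns and red in the control columns, and most rows of the core rings show the opposite with pale colours.

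The largest difference of the set was that of rpn-1, which encodes the large scaffold of the base that docks ubiquitin receptors and a deubiquitinase. Its signal was 10.45, 10.12 and 10.12 on Au-NP arrays 1 to 3, against 10.94, 10.97 and 11.06 on control arrays 1 to 3. The groups did not overlap, and the control arrays lay close to one another. The difference was -0.76 ± 0.11 (SE, n = 3 arrays per group), a level 1.69-fold higher in control arrays, with a limma adjusted p of 0.00882. It passed in all 16 alternative settings in which the probe set was measured, with limma adjusted p from 0.00366 to 0.0486, the highest of them when Au-NP replicate 2 was left out. The difference was -0.70 when Au-NP replicate 3 was left out (limma adjusted p = 0.00558). The single probe set of rpn-1 carries a suffix that Affymetrix uses for probes that can match more than 1 transcript.

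The companion scaffold gene rpn-2, whose product is the other large repeat protein of the base, lay in the same direction and did not pass. Its signal was 10.54, 10.28 and 10.41 on Au-NP arrays 1 to 3, against 10.63, 10.76 and 10.68 on the control arrays. All 3 Au-NP values were below all 3 control values. The difference was -0.28 ± 0.09 (SE, n = 3; limma adjusted p = 0.0932), and a further probe set of rpn-2 had -0.34 ± 0.10 (limma adjusted p = 0.0691), again with no overlap. With array weights the adjusted limma p of rpn-2 was 0.0406 and with cyclic loess normalization it was 0.0385. The ubiquitin receptor genes of the base had smaller differences. Signals of rpn-10, a receptor that in worms is also known for its role in sex determination of the germ line, were 10.98, 10.98 and 10.91 on the Au-NP arrays, inside the range of 10.89 to 11.08 of the control arrays, with a difference of -0.032 ± 0.079 (SE, 95% interval -0.22 to 0.15). Its other probe set lay the other way, with all 3 Au-NP values above all 3 control values and a difference of 0.11 ± 0.07 (SE; limma adjusted p = 0.394). For rpn-13, the other receptor, the difference was 0.087 ± 0.069 (SE, 95% interval -0.08 to 0.25).

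Among the beta subunits, pbs-2 was the one gene of its ring that passed. It encodes the subunit with trypsin-like activity. Its signal was 11.01, 10.88 and 10.79 on Au-NP arrays 1 to 3, and 11.23, 11.20 and 11.28 on control arrays 1 to 3, so the groups did not overlap. The difference was -0.34 ± 0.08 (SE, n = 3; limma adjusted p = 0.0391), or a level 1.27-fold higher in control arrays. This call was less stable than that of rpn-1. The difference was -0.29 when Au-NP replicate 3 was left out (limma adjusted p = 0.0641). The limma adjusted p was 0.137 when Au-NP replicate 2 was left out, and 0.101, 0.0952 and 0.121 when control replicates 1, 2 and 3 were left out in turn. Its sign was negative in all 16 alternatives, over a range from -0.46 to -0.29.

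The remaining beta subunit genes had differences from -0.0057 to 0.27, none of which passed. For pbs-4, a structural beta subunit, the Au-NP arrays had 11.28, 11.29 and 11.38, and the control arrays had 11.07, 11.02 and 11.10. The difference was 0.26 ± 0.07 (SE, n = 3; limma adjusted p = 0.0623), the nearest to the threshold of all subunit genes that missed it. The gene pbs-6 had 11.30, 11.37 and 11.70 on the Au-NP arrays, against 11.07, 11.14 and 11.34 on the control arrays, so that these groups overlapped and Au-NP replicate 3 was the highest. Its difference of 0.27 ± 0.13 (SE; limma adjusted p = 0.226) was 0.15 without Au-NP replicate 3. The chymotrypsin-like subunit gene pbs-5 had 0.17 ± 0.09 (SE; limma adjusted p = 0.276). For pbs-1, which encodes the caspase-like subunit, the 6 arrays lay between 10.79 and 10.84 and the difference was -0.0057 ± 0.068 (SE, 95% interval -0.16 to 0.15). The genes of the catalytic subunits thus had differences on both sides of zero, of which that of pbs-2 passed.

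The gene pbs-3 had a pair of probe sets that both had higher values on all Au-NP arrays than on any control array. They gave 0.19 ± 0.09 and 0.38 ± 0.11 (SE; limma adjusted p = 0.215 and 0.0647), and the second of them passed with Au-NP replicate 3 left out, at 0.46 (limma adjusted p = 0.0227). For pbs-7 the probe set with the higher mean gave 0.22 ± 0.08 with no overlap, and its other probe set 0.16 ± 0.09 with overlap (SE; limma adjusted p = 0.144 and 0.326).

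The 7 alpha subunit genes all had positive differences on the deposited values, from 0.081 for pas-6 to 0.28 for pas-4, and 0 rose (3 were higher at an unadjusted limma p under 0.05). Of all genes tested, 60.5% had positive differences, 7.09% rose and 18% were higher at that unadjusted limma p. In pas-1 and pas-6 the sign turned negative, down to -0.031, with the correction for gene span and with cyclic loess normalization. The tightest separation was in pas-2, with 11.33, 11.36 and 11.38 on the Au-NP arrays and 11.16, 11.08 and 11.10 on the control arrays. Its difference was 0.25 ± 0.07 (SE, n = 3; limma adjusted p = 0.0625), and the limma adjusted p was 0.0379 with array weights and 0.0474 among probe sets at or above the median level. In pas-4 the Au-NP arrays had 10.96, 10.99 and 11.14 and the control arrays 10.60, 10.70 and 10.94, so that the groups did not overlap but control replicate 3 lay next to the lowest Au-NP array. The difference of pas-4 was 0.28 ± 0.11 (SE; limma adjusted p = 0.150). The groups also did not overlap in pas-3 and pas-5, with 0.18 and 0.17 log2, and they did in pas-1, pas-6 and pas-7. Beside this, the Au-NP values lay wholly above the control values in 21.1% of all genes.

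**Figure D2:**
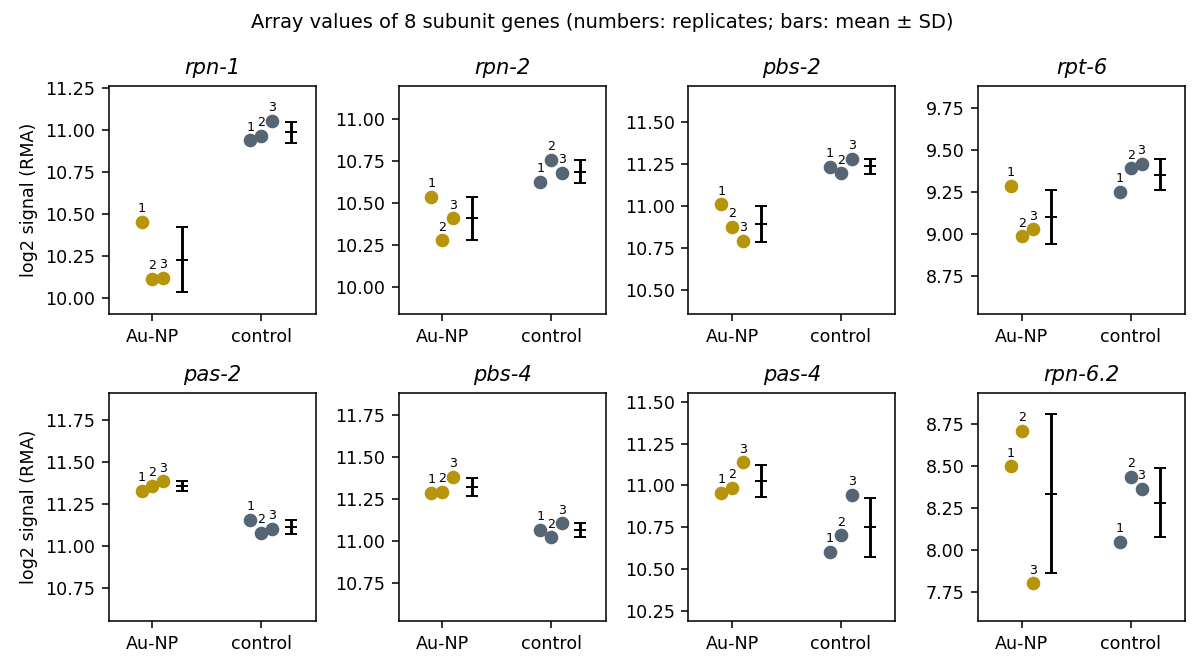
Log2 signal (vertical axes, all of the same length in log2 units) of 8 subunit genes on the Au-NP arrays (left, gold) and control arrays (right, grey), with replicate numbers beside the points and the mean ± SD (n = 3) as a bar. The genes were chosen after their values were seen. The gap of rpn-1 is the widest, pas-2 and pbs-4 have narrow groups that do not overlap, and the Au-NP points of rpn-6.2 lie on both sides of its control points.

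The ATPase genes of the base held 4 positive and 2 negative differences (1 positive after the span correction or cyclic loess normalization), and none passed (0 higher and 2 lower at an unadjusted limma p under 0.05). The lower ones were rpt-2 and rpt-6. Of all genes tested, 60.5% had positive differences, and 18% were higher and 8.39% lower at that unadjusted limma p. Positive differences were held by 8016 of 17078 genes after the span correction and 9036 of 17118 with cyclic loess. For rpt-2, whose product helps to open the gate of the core particle, the Au-NP arrays had 10.38, 10.31 and 10.50 and the control arrays 10.53, 10.63 and 10.65, without overlap and with a difference of -0.21 ± 0.08 (SE; limma adjusted p = 0.162). Its other probe set gave -0.14 ± 0.10 (limma adjusted p = 0.459), and with cyclic loess normalization the first one passed at -0.33 (limma adjusted p = 0.0442). For rpt-6 the Au-NP arrays had 9.29, 8.99 and 9.03 and the control arrays 9.25, 9.39 and 9.42, so Au-NP replicate 1 lay inside the control range. The difference of rpt-6 was -0.25 ± 0.10 (SE; limma adjusted p = 0.166). In rpt-4 the difference was 0.18 ± 0.12 (SE), with control replicate 1 at 11.17 and the other 5 arrays from 11.43 to 11.71. Differences of rpt-1, rpt-3 and rpt-5 were between 0.028 and 0.075, and all 3 had negative values after the correction for gene span and with cyclic loess normalization, the lowest of them -0.083 for rpt-3.

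Of the 9 lid genes 7 had overlapping groups, and none passed (1 higher and 0 lower at an unadjusted limma p under 0.05). The exceptions to the overlap were rpn-12 and rpn-6.1. Groups overlapped in 11886 of all 17118 genes tested, so such overlap was common. At that unadjusted limma p, 18% of all genes were higher and 8.39% lower. For rpn-12, a lid subunit joined late in assembly in yeast, the Au-NP arrays had 10.31, 10.36 and 10.45 and the control arrays 10.08, 10.09 and 10.28, and the difference was 0.22 ± 0.09 (SE; limma adjusted p = 0.151). For rpn-6.1, which clamps lid and core together and is known in worms for raising proteasome activity when overexpressed, the Au-NP arrays had 11.17, 11.19 and 11.19 and the control arrays 11.25, 11.22 and 11.37. All Au-NP values of rpn-6.1 were lower, and its difference was -0.097 ± 0.074 (SE, 95% interval -0.27 to 0.08). The deubiquitinase gene rpn-11 had 0.066 ± 0.097 (SE, 95% interval -0.16 to 0.29), and its partner rpn-8 had 0.22 ± 0.14 (SE; limma adjusted p = 0.393). Values of rpn-8 reached from 10.28 to 10.72 on the Au-NP arrays and from 10.05 to 10.44 on the control arrays. The other lid genes rpn-3, rpn-5, rpn-7 and rpn-9 had differences from -0.062 to 0.11.

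The most variable member was rpn-6.2, a second gene of the rpn-6 type. Its signal was 8.50, 8.71 and 7.80 on Au-NP arrays 1 to 3, against 8.05, 8.44 and 8.36 on the control arrays. Au-NP replicate 3 gave the lowest of the 6 values and Au-NP replicate 2 the highest. The difference of 0.054 had an SE of 0.23, where the next largest SE among the members was 0.14, and it was 0.32 without Au-NP replicate 3 (limma adjusted p = 0.142).

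The precision of the fit bounds what the uncalled genes could hold. The 95% intervals (not adjusted for the number of genes) of the 31 genes that did not pass all lay within 1 log2 unit of zero, and 27 of them within 0.5. The bounds ran from -0.49 for rpt-6 to 0.59 for rpn-6.2. Of these intervals 9 left out zero, which is the same as an unadjusted limma p under 0.05. Among all genes tested, called ones included, 18% met that limit as higher and 8.39% as lower. No uncalled gene had a difference above 1.21-fold in either direction on the probe set that represented it. These limits do not cover the further probe sets. Those of pbs-3 and rpn-2 did not pass and had larger differences, 0.38 and -0.34 log2, with intervals that reached beyond the bounds given here.

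**Figure D3:**
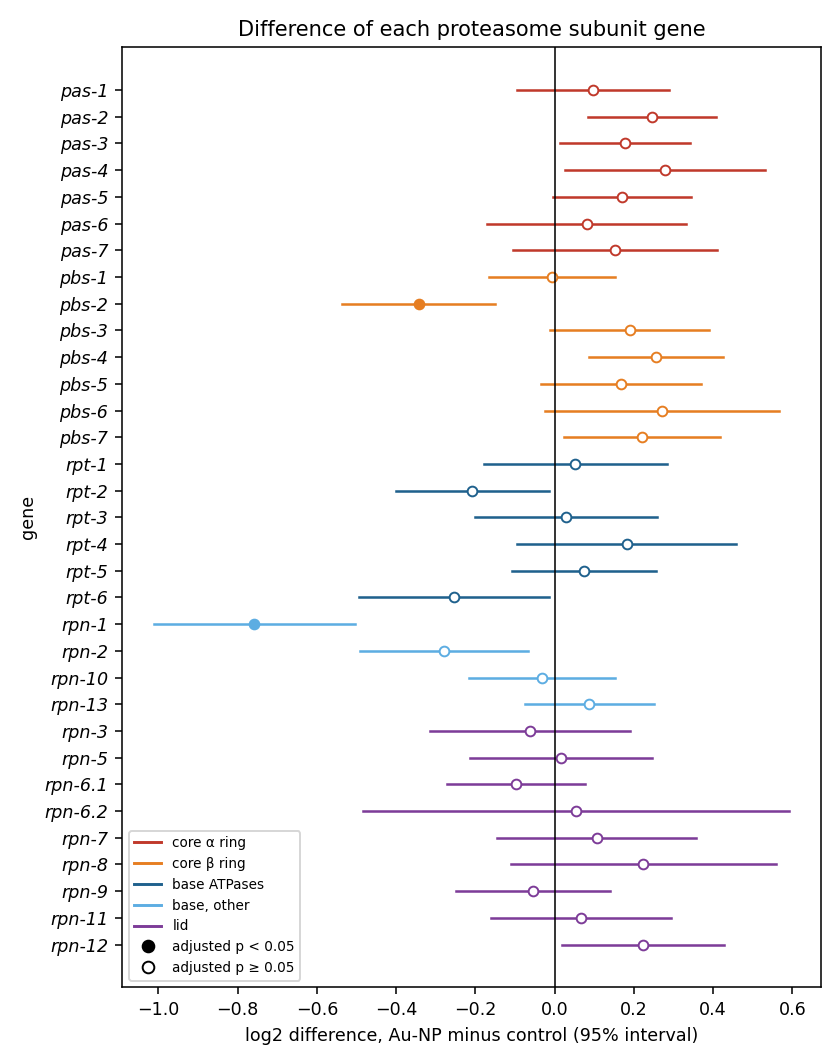
Log2 difference, Au-NP minus control (horizontal axis), of each subunit gene with its 95% interval from limma (n = 3 arrays per group), coloured by ring, base or lid, and filled where the adjusted p was under 0.05. The filled points are rpn-1 at -0.76 and pbs-2 at -0.34, and the points of the other core genes lie from -0.0057 to 0.28.

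Core particle and cap genes were set side by side. In the core particle 12 of 14 genes had positive differences (10 after the correction for gene span described below, and 10 with cyclic loess normalization), 1 fell and 0 rose (5 were higher and 1 lower at an unadjusted limma p under 0.05), with a median of 0.17 log2. In the cap 11 of 19 had positive differences (5 and 3 in those settings), 1 fell and 0 rose (1 higher and 4 lower at an unadjusted limma p under 0.05), with a median of 0.028. Positive differences made up 60.5% of all genes tested, and 4.45% of all genes fell and 7.09% rose. The Au-NP values lay wholly above the control values in 8 of 14 core genes and 2 of 19 cap genes, against 21.1% of all genes, and wholly below them in 1 core gene and 4 cap genes, against 9.5% of all genes. The medians of the core and the cap differed by 0.15 log2. Genes of a list are not replicates and no test of that gap was made.

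On each array the core and the cap were summarised by the median over their genes of the signal minus that gene's mean over the 6 arrays. For the core these medians were 0.081, 0.036 and 0.14 on Au-NP arrays 1 to 3, against -0.13, -0.099 and -0.030 on control arrays 1 to 3. All 3 Au-NP arrays lay above all 3 control arrays. For the cap they were 0.0079, -0.023 and 0.013 on the Au-NP arrays, against -0.076, -0.021 and 0.086 on the control arrays. The cap's Au-NP arrays fell inside the spread of its control arrays. The median of the core minus that of the cap was 0.073, 0.058 and 0.13 on the Au-NP arrays, against -0.059, -0.078 and -0.12 on the control arrays, with no overlap, and Au-NP replicate 3 was not the array that set this order. The median over all genes was 0.037, 0.011 and 0.021 on the Au-NP arrays and -0.058, -0.015 and 0.0037 on the control arrays. These medians of all genes did not overlap between the groups either, in the same direction as the core.

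**Figure D4:**
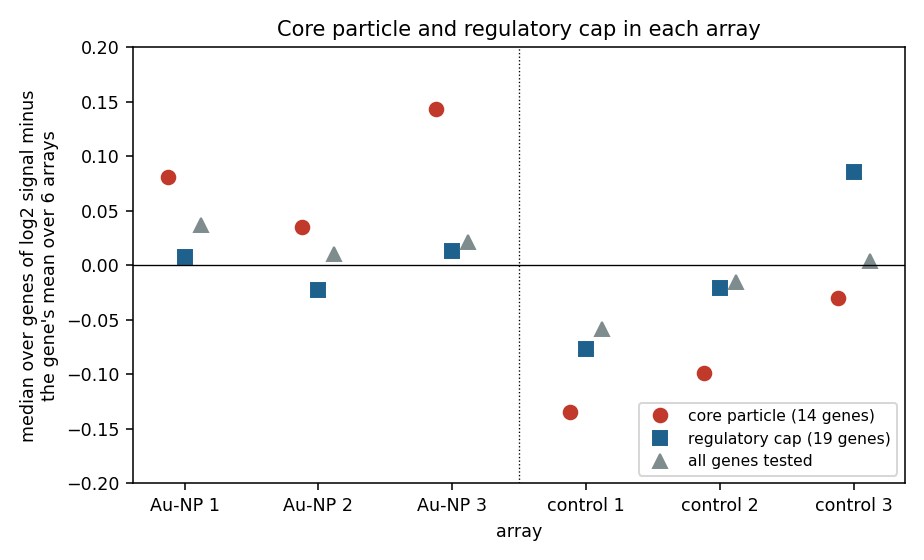
Median over the genes of the core particle (red circles), the regulatory cap (blue squares) and all genes tested (grey triangles) of the log2 signal minus the gene's mean over the 6 arrays (vertical axis), for each array (horizontal axis, Au-NP left of control). The core lies above the cap on the 3 Au-NP arrays and below it on the 3 control arrays.

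The gap between core and cap did not depend on which array was left out for its sign, but its size did. It was 0.14 when Au-NP replicate 3 was left out, 0.20 when control replicate 1 was and 0.10 when control replicate 3 was. The cap's own median was 0.095 without control replicate 3 and -0.028 without control replicate 1. All 33 genes were measured at or above the median level of the table, so a filter on low signals removed none of them. Among the genes at or above that level, the median difference of all genes was 0.0997, which lies between those of the cap and the core.

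Gene span, the length of a gene with its introns in assembly WBcel235, moved with the differences. Across the 33 genes, which share arrays and probe design, Spearman's rho between span and difference was -0.50, and over 17078 genes with a known span it was -0.23. It was -0.011 within the 14 core genes, whose spans ran from 939 to 1311 bp, and -0.29 within the 19 cap genes, whose spans ran from 1069 to 4010 bp. The genes rpn-1 and rpn-2 span 3494 and 3415 bp. Only rpt-4 is longer at 4010 bp, and its difference was positive. The gene pbs-2 spans 1065 bp, close to the core's median of 1018.5 bp. Once the trend with span had been removed from every array, the core's median was 0.069, the cap's was -0.058 and that of all genes was -0.014. The gap between core and cap was then 0.13. Spearman's rho between span and the corrected differences was 0.024 over all genes with a known span. It was still -0.38 over the 33 genes, with 0.090 within the core and -0.19 within the cap. The correction thus left a trend with span among the subunit genes, and the part of span in the gap was not tested. The corrected differences were -0.79 for rpn-1 and -0.45 for pbs-2 (limma adjusted p = 0.00752 and 0.0170), and these were the genes that fell, with 0 that rose, where 4.25% of all genes fell and 3.85% rose.

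**Figure D5:**
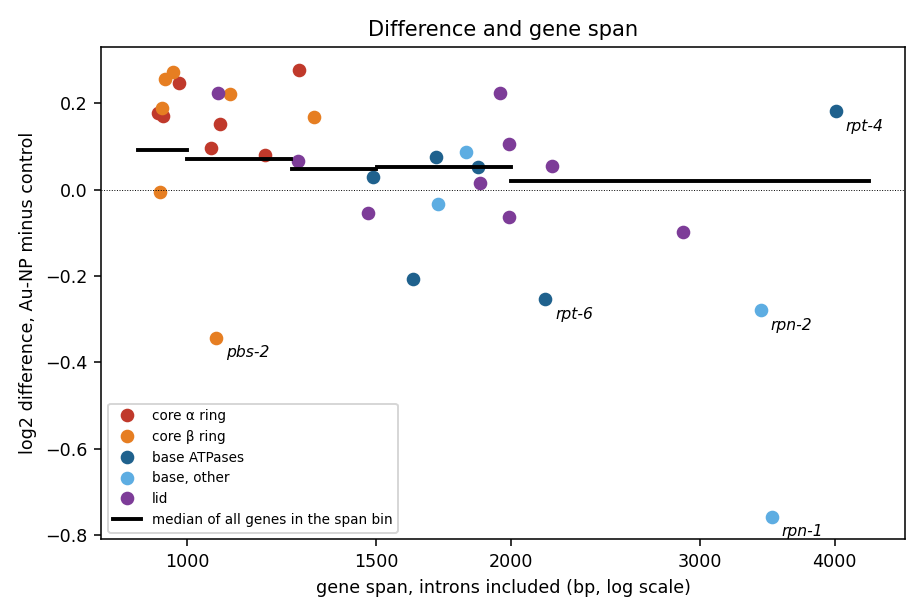
Log2 difference, Au-NP minus control (vertical axis), against gene span in bp (horizontal axis, log scale) for the 33 subunit genes, coloured by ring, base or lid, with black lines for the median of all genes in 5 bins of span. The core genes cluster at spans up to 1311 bp, most of them above the lines, and rpn-1, rpn-2 and rpt-6 lie below the line for genes over 2000 bp, while rpt-4 lies above it.

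End bias of the RNA was read from the array controls. For the array's glyceraldehyde-3-phosphate dehydrogenase control, the signal at the 3' end minus that at the 5' end was -0.29, -0.27 and -0.39 on the Au-NP arrays and -0.20, -0.19 and -0.26 on the control arrays, with no overlap. For the actin control the same quantity was -0.10, 0.031 and -0.17 on the Au-NP arrays and -0.19, -0.10 and -0.049 on the control arrays, with overlap. The catalase control had 0.46, 0.75 and 0.78 on the Au-NP arrays and 0.68, 0.73 and 0.69 on the control arrays. The ubiquitin control had 2.98, 3.34 and 3.33, against 3.21, 3.19 and 3.05. Both overlapped between the groups. The part of end bias in the differences was not tested.

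Ubiquitin itself is supplied in worms by ubq-1, a polyubiquitin gene, and ubq-2, in which ubiquitin is fused to a ribosomal protein. For ubq-1 the Au-NP arrays had 12.53, 12.45 and 12.70 and the control arrays 12.88, 12.84 and 12.97, without overlap. The difference of -0.34 ± 0.09 (SE) missed the threshold (limma adjusted p = 0.0519), passed without Au-NP replicate 3 at -0.41 (limma adjusted p = 0.0189), and was -0.21 for its other probe set (limma adjusted p = 0.292). The first probe set also passed with a second quantile normalization, median centring, cyclic loess normalization and the span correction. So it did with array weights, with trend and robust variance, and among probe sets at or above the median level. In these settings the limma adjusted p was from 0.0171 to 0.0476. The array's own 3 ubiquitin control probe sets, which were left out of the fit and which the files do not tie to a gene, had means lower by 0.36, 0.41 and 0.43 log2 on the Au-NP arrays. For ubq-2 the difference was 0.10 ± 0.07 (SE; limma adjusted p = 0.460). The gene uba-1, which encodes the enzyme that activates ubiquitin, fell by 0.64 ± 0.12 (SE; limma adjusted p = 0.0198), with 9.99, 9.72 and 10.12 on the Au-NP arrays and 10.49, 10.52 and 10.73 on the control arrays. Its other probe set gave -0.60 (limma adjusted p = 0.0390), and the first did not pass when control replicate 1, 2 or 3 or Au-NP replicate 2 was left out, with limma adjusted p from 0.0557 to 0.0744. Of the 7 measured ubiquitin, E1 and E2 genes, uba-1 was the one that fell and 0 rose (0 higher and 2 lower at an unadjusted limma p under 0.05). The shares over all genes were 4.45% that fell and 7.09% that rose. With Au-NP replicate 3 left out 2 fell, uba-1 and ubq-1, against 7.41% of all genes. The median of the 7 genes was 0.10.

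Among 13 measured regulators and helpers of the proteasome 1 rose and 0 fell (2 higher and 2 lower at an unadjusted limma p under 0.05), with a median of -0.016. Beside this, 7.09% of all genes rose and 4.45% fell. With Au-NP replicate 3 left out 2 rose and 1 fell, against 10.3% and 7.41% of all genes. The gene that rose was psme-3, whose product is an alternative activator that binds the end of the core where the cap also binds. It had 9.87, 9.83 and 9.77 on the Au-NP arrays and 9.32, 9.39 and 9.50 on the control arrays, a difference of 0.42 ± 0.08 (SE; limma adjusted p = 0.0187), or 0.45 with Au-NP replicate 3 left out. It did not pass when Au-NP replicate 1 or 2 or control replicate 1 or 2 was left out, with limma adjusted p from 0.0542 to 0.0821, nor with cyclic loess normalization, at 0.0502. The transcription factor gene skn-1, of which 1 isoform acts on proteasome genes, had -0.42 ± 0.13 (SE; limma adjusted p = 0.0841), and all 3 of its probe sets had negative differences. When Au-NP replicate 3 was left out skn-1 passed at -0.48 (limma adjusted p = 0.0449). It also passed with array weights, with cyclic loess normalization and as the mean of its probe sets (limma adjusted p from 0.0368 to 0.0499). The protease gene ddi-1, whose product activates that isoform, had 0.13 ± 0.09 (SE). The small lid protein gene dss-1 had 0.27 ± 0.12 (SE; limma adjusted p = 0.213) and, with Au-NP replicate 3 left out, 0.39 (limma adjusted p = 0.0317). The deubiquitinase genes ubh-4 and usp-14 had 0.22 and -0.044, and the shuttle gene rad-23 had -0.016, with limma adjusted p from 0.199 to 0.937.

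The segregase CDC-48 pulls ubiquitin-tagged proteins apart ahead of the proteasome. Its genes cdc-48.1 and cdc-48.2 both had -0.35 (limma adjusted p = 0.0552 and 0.204). Neither passed on the deposited values. In 5 alternatives cdc-48.1 did: among probe sets at or above the median level, with array weights, with the span correction, with cyclic loess normalization and when Au-NP replicate 1 was left out, with limma adjusted p from 0.0256 to 0.0438. For cdc-48.2 it was 1 alternative, at -0.49 when Au-NP replicate 3 was left out (limma adjusted p = 0.0354). Of 12 measured genes of the segregase and its partners 1 fell and 0 rose (2 higher and 2 lower at an unadjusted limma p under 0.05), with a median of -0.057, and 2 fell with Au-NP replicate 3 left out. Beside this, 4.45% of all genes fell and 7.09% rose, and 7.41% fell with Au-NP replicate 3 left out. The gene that fell was ubxn-1, a cofactor of the segregase. Its signal was 9.38, 9.32 and 9.27 on the Au-NP arrays and 10.15, 10.20 and 10.13 on the control arrays, so the groups lay far apart for their spread. The difference was -0.84 ± 0.07 (SE; limma adjusted p = 0.00263).

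Genes of the cullin ligases moved in both directions, and those of the deubiquitinases that passed were lower. Of 30 cullin ligase genes 4 rose and 2 fell (11 higher and 2 lower at an unadjusted limma p under 0.05), against 7.09% of all genes that rose and 4.45% that fell, with a median of 0.096. With Au-NP replicate 3 left out 7 rose, against 10.3% of all genes. After the span correction skr-5 was the one of the 4 that passed, and skr-20, skr-4 and ned-8 had limma adjusted p from 0.0847 to 0.158. Among those that rose, skr-5, one of the Skp1-related adaptors, had 10.37, 10.29 and 10.03 on the Au-NP arrays and 9.35, 9.53 and 9.33 on the control arrays, a difference of 0.83 ± 0.11 (SE; limma adjusted p = 0.00760). The adaptor skr-20 rose by 0.46 ± 0.11 (SE; limma adjusted p = 0.0396), which was 0.33 after the span correction (limma adjusted p = 0.0847). The scaffold genes cul-3 and cul-2 fell by 0.44 ± 0.08 and 0.39 ± 0.09 (SE; limma adjusted p = 0.0175 and 0.0340). Of 18 deubiquitinase genes 2 fell and 0 rose (6 higher and 4 lower at an unadjusted limma p under 0.05), namely usp-5 at -0.90 ± 0.15 and math-33 at -0.70 ± 0.12 (SE; limma adjusted p = 0.0123 and 0.0132), and the median of the list was 0.0031. With Au-NP replicate 3 left out ubh-3 and ubh-1 rose, at 0.35 and 0.36 (limma adjusted p = 0.0293 and 0.0445). This list shares ubh-4 and usp-14 with the regulators, and its counts stand beside the same shares of all genes as those of the cullin ligases. Single arrays decided several of these calls. The genes cul-2 and cul-3 did not pass when Au-NP replicate 2 or any control array was left out, skr-20 when any array other than Au-NP replicate 3 was, math-33 when Au-NP replicate 2 or control replicate 2 or 3 was, and usp-5 when control replicate 3 was, with limma adjusted p from 0.0525 to 0.145.

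Complexes built from the same protein folds as the lid gave a further reference. In the COP9 signalosome, which trims a ubiquitin-like tag from cullins, 7 of 7 genes had positive differences, also after the span correction and with cyclic loess normalization, with a median of 0.19, and 0 passed (2 higher at an unadjusted limma p under 0.05). Its protease gene csn-5, a relative of rpn-11, had 0.29 ± 0.09 (SE; limma adjusted p = 0.0847), and it rose with Au-NP replicate 3 left out, at 0.34 (limma adjusted p = 0.0497). Of all genes tested, 60.5% had positive differences, and 10.3% rose with that array left out. After the span correction 8016 of 17078 genes had positive differences, and with cyclic loess 9036 of 17118. At an unadjusted limma p under 0.05, 18% of all genes were higher and 8.39% lower. Of 10 genes of the translation initiation complex eIF3 1 fell and 0 rose (2 higher and 3 lower at an unadjusted limma p under 0.05), with a median of 0.049. The shares over all genes were 4.45% that fell and 7.09% that rose. The gene that fell was eif-3.J, at -0.64 ± 0.09 (SE; limma adjusted p = 0.00935, and 0.0512 when Au-NP replicate 2 was left out). The lid itself had a median of 0.054 (-0.030 after the span correction), against 0.042 (-0.014) for all genes.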

How the data were processed

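The deposited values are log2 signals, 1 per probe set and array. The submitters' processing notes name RMA, and Partek 6.4 with no role given. RMA corrects background, quantile-normalizes arrays and summarises probes, compresses low signals and assumes that most transcripts are equal between arrays. No genome build is given in the sources used here, so no coordinates are printed. Symbols came from the platform annotation. Of 22625 probe sets 77 array controls were left out. Of the 22548 tested, 20766 had 1 symbol, 887 several and 895 none.

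The test was the moderated test of limma 3.58.1, run in R 4.3.3 (group alone, two-sided, Benjamini-Hochberg over all probe sets, 4 residual and 3.39 prior degrees of freedom), tested on simulated data. Gene span came from the gene table of assembly WBcel235. Any subunit gene could be named. From each surrounding list up to 4 genes past the threshold and the fixed genes ubq-1, ubq-2, uba-1, skn-1, ddi-1, usp-14, ubh-4, rad-23, cdc-48.1, cdc-48.2, dss-1 and psme-3 were named, and csn-5, skr-4, ned-8, ubh-1, ubh-3 and the hypodermal markers were added after their values were seen. E2 genes named ubc are not analysed here. Members and lists were chosen with earlier results of these data known. Alternatives were other normalizations, filters, weights, variances, probe sets, thresholds, a replicate block and leaving out each array. Figures were drawn with matplotlib 3.10.9.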

Additional observations from a re-analysis of the deposited data

How the results depend on the processing

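Subunit genes were refitted under 17 alternatives, giving 541 values, of which 527 kept their side of the threshold, 6 lost a call (5 of them by leaving out 1 array, all pbs-2) and 8 gained one. The number of subunit genes that rose, 0, was 1 with median centring, and 2 among probe sets at or above the median level, with array weights and at an adjusted p of 0.1, all of them core genes (pas-2 and pbs-4). The number that fell, 2, was 0 without probe sets of possible cross-hybridization (13 genes left, neither rpn-1 nor pbs-2 among them, so 0 in core and 0 in cap), 4 with cyclic loess (3 in the cap), and 1 at an adjusted p of 0.01 (0 in the core). The cap had 2 that fell with array weights and at an adjusted p of 0.1. Leaving out single arrays gave 1 to 2 that fell, 0 to 1 in the core and 1 in the cap. The median of all 33 genes, 0.081, was -0.011 with the span correction and -0.031 with cyclic loess, and 0.025 to 0.13 with arrays left out. The core median, 0.17, was 0.069 and 0.064 in those settings, 0.25 without probe sets of possible cross-hybridization, and 0.16 to 0.21 with arrays left out. The cap median, 0.028, was -0.058 and -0.083, and -0.028 to 0.095 with arrays left out. The core's median was positive in every setting run, while the cap's changed sign. The gap between core and cap, 0.15, was 0.25 without probe sets of possible cross-hybridization and 0.10 to 0.20 with arrays left out. The causes of these changes were not tested, and some settings hold fewer genes or arrays.

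The labels state no pairing of the arrays by replicate number. Deviations of same-numbered arrays from their group means correlated at -0.34, 0.43 and 0.22 for replicates 1, 2 and 3 across probe sets, and Au-NP replicates 1 and 3 correlated best with another number. These values cannot decide whether arrays were paired, since the deviations of 3 arrays from their own mean offset one another. With the replicate block 1 subunit gene fell (rpn-1, limma adjusted p = 0.0225), 0 in the core, and pbs-2 had a limma adjusted p of 0.0732.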
